A study of Mus musculus with 2 samples.

Results

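Skeletal muscle genes of the sarcomere, of calcium handling and of muscle energy supply were followed in 2 RNA samples labelled as mouse cerebral cortex. The set was a list of 37 named genes, of 18193 genes with at least 1 single-gene probe set on the array. All 37 were found, with 69 probe sets of the 45101 in the table. The list was drawn up with the values of these arrays known, because muscle genes were bright on both, so their brightness and the direction of their difference are described here and not tested.

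The study compared a wild-type embryo, Sox11(+/+), with a Sox11(-/-) littermate, the null embryo, from a mating of Sox11(+/-) parents. Both were taken at E17.5, shortly before birth, with C57BL/6 and 129 in their background, and no other allele or agent is given. Sox11 is a transcription factor of developing neurons, and the comparison asks which genes differ without it. The brain was dissected, the cortex was frozen, total RNA was extracted, and biotinylated cRNA was hybridised to 1 Affymetrix array per embryo. With 1 embryo per genotype there is no replicate check, and each difference below is one between 2 libraries. Their number limits the precision of every value, and no p-value can be given. The sources used here do not say how the null allele was made or which sex the embryos were.

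A striated muscle fibre shortens when myosin of the thick filament pulls on actin of the thin filament. Troponin and tropomyosin hold the thin filament off until calcium binds troponin C. The calcium comes from the sarcoplasmic reticulum through the ryanodine receptor at the triad, and the pump SERCA returns it. Fast, slow and cardiac fibres use different genes for many of these parts, and embryonic skeletal muscle also expresses several genes that later become cardiac or slow. Cortex has no striated fibres, so genes of this apparatus are not defining genes of the tissue on the label.

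Both libraries held strong signals of the muscle genes. The signal of a gene is that of its brightest probe set, on the linear scale of the deposited table. It ran from 456 (Mybph) to 23182 (Acta1) in wild type, with a median of 3321, and from 590 (Trdn) to 23519 (Acta1) in the null library, with a median of 4240. All 37 genes reached the median signal of at least 1 array (177.5 for wild type, 177.4 for the null array), the rule for calling a gene measured, as did 68.1% of all genes. Of the muscle genes, 9 lay in the top 1% of the wild-type array's probe sets and 11 in the top 1% of the null array's. A probe set's brightness also depends on its probes, so these places are not an order of RNA amounts. Signals of cortical neuron genes were present too, with Neurod6, a factor of cortical projection neurons, at 3019 and 2723, and Bcl11b, a factor of deep-layer neurons, at 2394 and 2204.

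**Figure D1:**
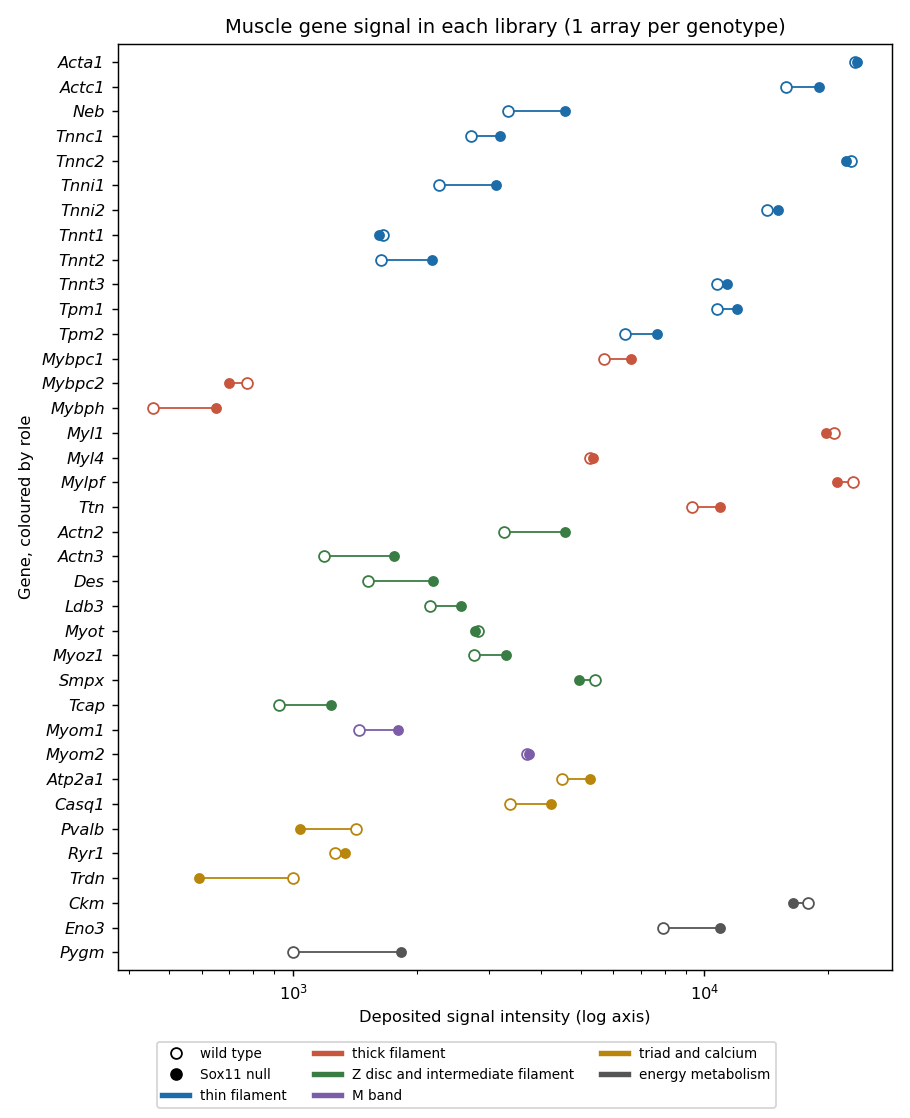
Deposited signal intensity (log axis) of each muscle gene by its brightest probe set, in the wild-type library (open points) and the Sox11-null library (filled points), with 1 array each and no error bars. Colours mark the gene's role, and the filled point lies to the right for most Z-disc and thin-filament genes but not for Trdn (1001 and 590) or Pvalb (1419 and 1040).

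Most muscle genes were slightly higher in the null library, and few by much. Differences are given on the log2 scale as null minus wild type, after a shift that set the median over measured genes to 0. The 37 genes had a median difference of 0.25 (quartiles -0.0021 and 0.43), where the median over all 12390 measured genes is 0 by construction (quartiles -0.17 and 0.17). Of the 37, 27 were above 0 (73.0%), against 50.0% of all measured genes and 45.9% of the 4564 measured genes with a mean signal of 1000 or more. Of the 37, 1 gene was 1.5-fold higher and 1 was 1.5-fold lower. Over all measured genes, 3.07% were 1.5-fold higher and 3.24% lower, so these counts are near the background. None of the 37 was 2-fold different, against 0.573% of all measured genes higher and 0.985% lower. In measured genes with a mean signal of 1000 or more, where 34 of the muscle genes lie, 0.898% were 1.5-fold higher and 1.29% lower. The muscle genes there had 1 higher and 0 lower. In such bulk RNA, a different number of muscle cells and a different amount of RNA per cell cannot be told apart.

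The thin filament held 12 of the genes, and 10 of them were above 0 with all 12 within 1.5-fold (median 0.21). Skeletal alpha-actin, Acta1, read 23182 in the wild-type library and 23519 in the null one, a difference of 0.041. Cardiac alpha-actin, Actc1, the actin of heart and of embryonic skeletal muscle, was at 15815 and 18986 (0.28). The signals of the skeletal actin were nearly equal, and those of the cardiac actin were higher in the null library. Neb, the giant protein along the thin filament, was at 3321 and 4582 (0.48). Tpm1, alpha-tropomyosin, was at 10716 and 11973 (0.18), and its 3 other measured probe sets gave 0.083, -0.39 and 0.57. Tpm2, beta-tropomyosin, was at 6421 and 7665 (0.28), and its 3 others gave 0.31, -0.17 and 0.45. Both tropomyosins are also expressed in smooth muscle, and their probe sets did not all point one way.

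The troponin complex was represented by 7 genes. Fast troponin C, Tnnc2, which binds the calcium in fast fibres, was at 22674 and 22146 (-0.014). Slow and cardiac troponin C, Tnnc1, was at 2713 and 3177 (0.25). The fast form was thus nearly equal in the libraries, and the slow and cardiac form was the higher in the null library. Fast troponin I, Tnni2, the inhibitory subunit, was at 14230 and 15069 (0.10), and its second measured probe set gave 0.17, although the average including its unmeasured probe set was -0.22. Slow troponin I, Tnni1, was at 2262 and 3122 (0.48). Cardiac troponin I, Tnni3, which is not on the list, was at 8 and 47, below the floor of 52.9 and 52.5 on both arrays. The inhibitory subunit therefore showed skeletal forms and no measured cardiac form. Fast troponin T, Tnnt3, the subunit that holds tropomyosin, was at 10712 and 11318 (0.099). Slow troponin T, Tnnt1, was at 1654 and 1621 (-0.0089). Cardiac troponin T, Tnnt2, was at 1636 and 2177 (0.43), and its other measured probe set gave 0.65. Of the troponin T genes, the cardiac form, which embryonic skeletal muscle also expresses, had the largest difference.

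The thick filament had 7 genes, 4 of them above 0, and a median of 0.040. The fast essential light chain Myl1 was at 20667 and 19773 (-0.044), and the fast regulatory light chain Mylpf at 22955 and 21000 (-0.11). The embryonic and atrial light chain Myl4 was at 5268 and 5344 (0.040), or at -0.39 when averaged with its unmeasured second probe set. By their brightest probe sets all 3 light chains were close to equal in the libraries. Slow myosin-binding protein C, Mybpc1, which links the thick filament's backbone to actin, was at 5701 and 6627 (0.24). Its other measured probe sets gave more, 1.47 (979 and 2680) and 0.49 (1178 and 1628), with a mean of 0.73 over all 3. Fast myosin-binding protein C, Mybpc2, was at 772 and 697 (-0.13). Their relative Mybph was at 456 and 650 (0.53). Ttn, titin, the spring that spans half-sarcomeres, was at 9301 and 10879 (0.25). Of its 3 other measured probe sets, 2 gave 0.025 and 0.16, and the third, at 265 and 177, gave -0.56. With all probe sets averaged Ttn was at -0.19, and with the measured ones only at -0.033, so its direction turns with the choice of probe sets.

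Z-disc and intermediate filament genes had a median of 0.36, with 6 of 8 above 0 and all 8 within 1.5-fold. Alpha-actinin cross-links thin filaments at the Z disc. Actn3, its fast-fibre form, was at 1191 and 1756 (0.58), just inside the 1.5-fold edge of 0.585. Actn2, the form of all striated fibres, was at 3258 and 4591 (0.51). Des, desmin, the intermediate filament that ties Z discs together, was at 1521 and 2191 (0.55), but its unmeasured second probe set was at 172 and 96, and the mean of both differences was -0.14. The titin cap Tcap was at 926 and 1234 (0.43). The calcineurin-binding Z-disc protein Myoz1 was at 2747 and 3287 (0.28). Ldb3, which binds alpha-actinin, was at 2149 and 2558 (0.27), and its 2 other measured probe sets gave 0.33 and 0.32. These genes were all higher in the null library by their brightest probe set. The other 2 were not: Myot, myotilin, was at 2810 and 2767 (-0.0021), and the X-linked Smpx at 5420 and 4949 (-0.11).

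At the M band, which holds thick filaments in register, Myom1 was at 1449 and 1799 (0.33). Myom2 was at 3698 and 3735 (0.034) by a probe set of the _x_at type, which can share probes with other genes. A second of that type gave 0.37, and its measured probe set of another type gave 0.23.

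The 5 genes of the triad and of calcium handling pointed both ways (median 0.10, 3 above 0). The calcium release channel Ryr1 was at 1261 and 1334 (0.10). The fast-fibre calcium pump Atp2a1, SERCA1, was at 4499 and 5269 (0.25), and Casq1, the skeletal calcium store protein of the reticulum, at 3361 and 4240 (0.36). Channel, pump and store were thus equal or higher in the null library. Pvalb, the calcium buffer parvalbumin, was at 1419 and 1040 (-0.43). Parvalbumin is also known from interneurons of the mature cortex, so its signal need not be of muscle alone. Trdn, triadin, which anchors calsequestrin to the ryanodine receptor, had the most negative difference of the list, with 1001 and 590 (-0.74). Its other measured probe sets pointed the other way, at 556 and 627 (0.19) and at 338 and 435 (0.38). With all its probe sets averaged Trdn was at 0.13, and with the measured ones only at -0.055, so its direction rests on 1 probe set.

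The 3 genes of energy supply spread the widest upwards (median 0.48). Pygm, muscle glycogen phosphorylase, which releases glucose units from glycogen, was at 998 and 1833 (0.90). It has a single probe set and was the 1 gene of the list that was 1.5-fold higher. Eno3, the muscle enolase of glycolysis, was at 7922 and 10907 (0.48). Ckm, the muscle creatine kinase that rebuilds ATP, was at 17848 and 16405 (-0.10), and its second measured probe set gave -0.20. Within this small group the glycogen and glycolysis enzymes were higher in the null library and the creatine kinase was not.

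The promoters of 6 genes are printed because they are pairs within a role that differed in their values: skeletal and cardiac actin, fast and slow troponin C, and the enzymes Ckm and Pygm. Each sequence is the 250 bases before the RefSeq start of the gene, on the gene's strand, from the GRCm38.p6 build. The windows are chr8:123894776-123895025 (minus strand) for Acta1, chr2:114052876-114053125 (minus) for Actc1, chr2:164779735-164779984 (minus) for Tnnc2, chr14:31208062-31208311 (plus) for Tnnc1, chr7:19410844-19411093 (plus) for Ckm and chr19:6384158-6384407 (plus) for Pygm. Capitals mark each E-box (CANNTG, the core bound by myogenic factors), each CArG box (CC and GG around a run of A and T, bound by serum response factor) and each MEF2 site.
Acta1: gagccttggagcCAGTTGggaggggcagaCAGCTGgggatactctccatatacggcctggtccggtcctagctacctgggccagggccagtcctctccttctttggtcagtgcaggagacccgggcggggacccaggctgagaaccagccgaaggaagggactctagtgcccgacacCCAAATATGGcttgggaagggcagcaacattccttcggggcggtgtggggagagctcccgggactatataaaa
Actc1: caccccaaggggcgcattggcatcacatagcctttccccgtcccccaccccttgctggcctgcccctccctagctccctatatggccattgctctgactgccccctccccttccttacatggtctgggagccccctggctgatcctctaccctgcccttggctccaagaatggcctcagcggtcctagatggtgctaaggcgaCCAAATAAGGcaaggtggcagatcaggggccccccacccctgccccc
Tnnc2: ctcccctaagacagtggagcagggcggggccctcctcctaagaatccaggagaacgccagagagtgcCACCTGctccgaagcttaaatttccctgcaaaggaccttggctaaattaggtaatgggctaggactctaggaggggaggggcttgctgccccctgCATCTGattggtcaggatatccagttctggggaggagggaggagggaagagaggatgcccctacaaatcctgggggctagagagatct
Tnnc1: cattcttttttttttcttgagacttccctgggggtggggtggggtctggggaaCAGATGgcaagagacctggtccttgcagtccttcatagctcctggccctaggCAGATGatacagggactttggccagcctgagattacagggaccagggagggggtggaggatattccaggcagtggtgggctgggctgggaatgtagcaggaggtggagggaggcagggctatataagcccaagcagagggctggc
Ckm: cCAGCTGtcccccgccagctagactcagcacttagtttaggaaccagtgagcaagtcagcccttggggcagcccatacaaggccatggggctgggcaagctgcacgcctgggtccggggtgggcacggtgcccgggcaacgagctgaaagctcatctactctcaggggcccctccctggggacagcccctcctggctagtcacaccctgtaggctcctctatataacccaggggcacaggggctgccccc
Pygm: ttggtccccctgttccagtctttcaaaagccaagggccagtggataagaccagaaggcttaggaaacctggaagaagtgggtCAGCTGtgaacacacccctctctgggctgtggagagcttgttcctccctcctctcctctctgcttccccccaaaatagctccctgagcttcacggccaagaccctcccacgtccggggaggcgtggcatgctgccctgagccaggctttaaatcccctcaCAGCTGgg

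Both actin promoters held a CArG box, Acta1 with 2 E-boxes and Actc1 with none. Both troponin C promoters held 2 E-boxes and no CArG box, so the fast and the slow form were alike in these letters. Ckm had 1 E-box and Pygm 2. Over the 28 muscle genes with a promoter in the RefSeq table, 32 windows were searched on both strands. A CArG box was found in 15.6% of them (Acta1, Actc1, Ldb3 and Myom1), against 1.47% of all 32851 windows of the same length. An E-box was found in 78.1% against 66.2%, and a MEF2 site in 3.12% (Ttn) against 0.508%. The letters TATAAA were found in 12.5% against 12.4%, and AACAAT, a core recognised by Sox factors, in 0 of 32 windows against 9.42%. E-boxes can overlap other motifs. A match is a description of letters and not a site shown to be bound.

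Fast, slow and cardiac forms were set side by side. The 10 fast skeletal genes had a median of 0.043, with 5 above 0 and 5 below. With Casq1, the main calsequestrin of fast fibres, counted among them it was 0.099 over 11 genes, which makes the contrast with the other classes smaller. The 3 slow skeletal genes had a median of 0.24 (2 above 0), Tnnc1 of slow and cardiac fibres was at 0.25, and the 3 cardiac or embryonic genes had 0.28 (all above 0). Together these 7 slow, cardiac or embryonic genes had a median of 0.25 with 6 above 0. The brightest fast genes, with mean signals of 10000 or more, were Tnnc2, Tnni2, Tnnt3, Mylpf and Myl1, at -0.11 to 0.10. All measured genes of that level had a median of -0.12. The fast genes below that level were Atp2a1 (0.25), Myoz1 (0.28), Actn3 (0.58), Mybpc2 (-0.13) and Pvalb (-0.43). Of the 7 others, only Actc1 (0.28) reached that level. The contrast between the fast genes and the 7 others was smaller under settings that remove differences by level. With quantile normalization the fast genes had a median of 0.19 (8 of 10 above 0) and the 7 others 0.32. With the loess trend removed the values were 0.18 and 0.31. With all probe sets averaged, the fast median was -0.029 and that of the 7 others was 0.28. Over 11 families, 14 pairs of a fast or skeletal gene and another measured isoform could be formed, some with a partner from outside the list. The other isoform had the larger difference in 9 of 14 pairs, with a median gap of 0.19. With quantile normalization it did so in 8 of 14, with a median gap of 0.090. The pairs are not separate, since some fast genes such as Tnnt3 are shared between pairs. Actn2, the form of all striated fibres, was counted among the other isoforms. Of the partners outside the list, the slow and ventricular light chain Myl2 stood highest, at 781 and 1222 (0.67). By their brightest probe sets Casq2 (0.25) and Atp2a2 (0.10), which slow fibres and heart use, were below their fast partners. With all probe sets averaged, Atp2a2 (0.257) was slightly above Atp2a1 (0.248), so that order turns with the choice of probe sets.

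**Figure D2:**
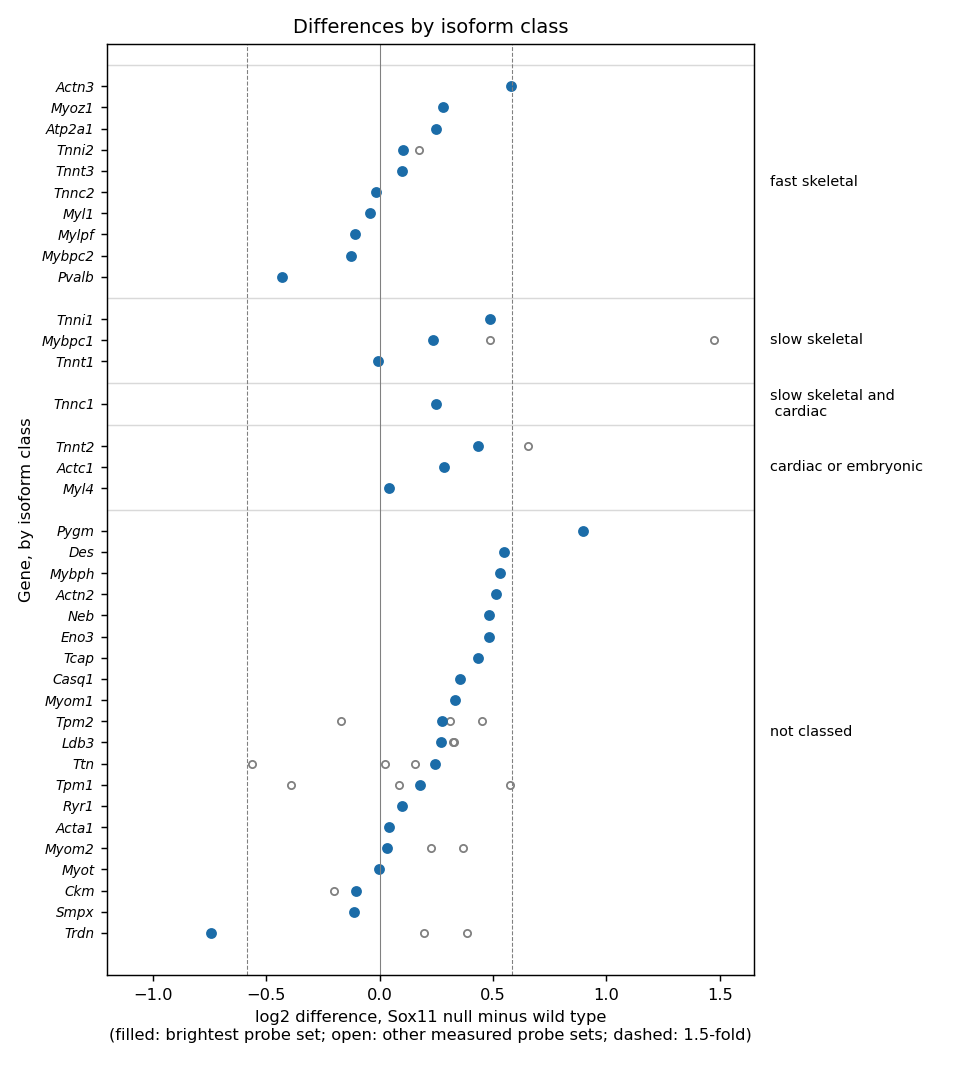
Log2 difference (Sox11 null minus wild type) of each muscle gene, grouped by isoform class, with the brightest probe set as a filled point, other measured probe sets as open points and the 1.5-fold edges dashed. The fast genes lie on both sides of 0 from -0.43 to 0.58, the slow and the cardiac or embryonic genes between -0.0089 and 0.48, and the open points of Trdn, Ttn, Tpm1 and Mybpc1 lie far from their filled points.

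Skeletal actin and several of the fast genes were near the top of the scale. The brightest non-control probe set read 36412 on the wild-type array and 31482 on the null array. Acta1 reached 63.7% and 74.7% of these values, Mylpf 63.0% and 66.7%, Tnnc2 62.3% and 70.3%, and Myl1 56.8% and 62.8%. In this range differences were small and mostly negative for any gene. The 185 measured genes with a mean signal of 10000 or more had a median of -0.12, a central 95% from -0.33 to 0.23, and 18.9% above 0. The 10 muscle genes among them had a median of 0.070 with 6 above 0, and all 10 were above the median of that class. Between 4000 and 10000 the median over 632 genes was -0.067, and that of the 6 muscle genes was 0.24. Between 1000 and 4000 the median over 3747 genes was -0.0040 (central 95% -0.44 to 0.49), and that of the 18 muscle genes was 0.34 with 15 above 0. Below 1000 the 3 muscle genes Mybph, Mybpc2 and Trdn had a median of -0.13. The muscle genes were therefore closer to 0 the brighter their class was from 1000 upwards, and whether signals near the top were saturated was not tested.

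Compared with all genes of their own level class, 7 of the 37 muscle genes (18.9%) lay above the central 95%, where 2.5% of all genes lie by construction, and 0 lay below it. Actn2, Actn3, Des and Pygm lay above it between 1000 and 4000, Eno3 lay above it between 4000 and 10000, and Actc1 and Ttn lay above it from 10000 upwards. Ttn (0.25) lay close to the edge of its class, 0.23. With all probe sets averaged, Ttn (-0.19) and Des (-0.14) were below 0, so their places rest on the brightest probe set. The signs of 5 bright or nearly equal genes depend on the trend with level. Tnnc2, Myl1, Mylpf, Ckm and Myot were below 0 as reported and above 0 under quantile normalization as well as after loess, where 32 of the 37 genes were above 0 and the medians were 0.30 and 0.29.

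**Figure D3:**
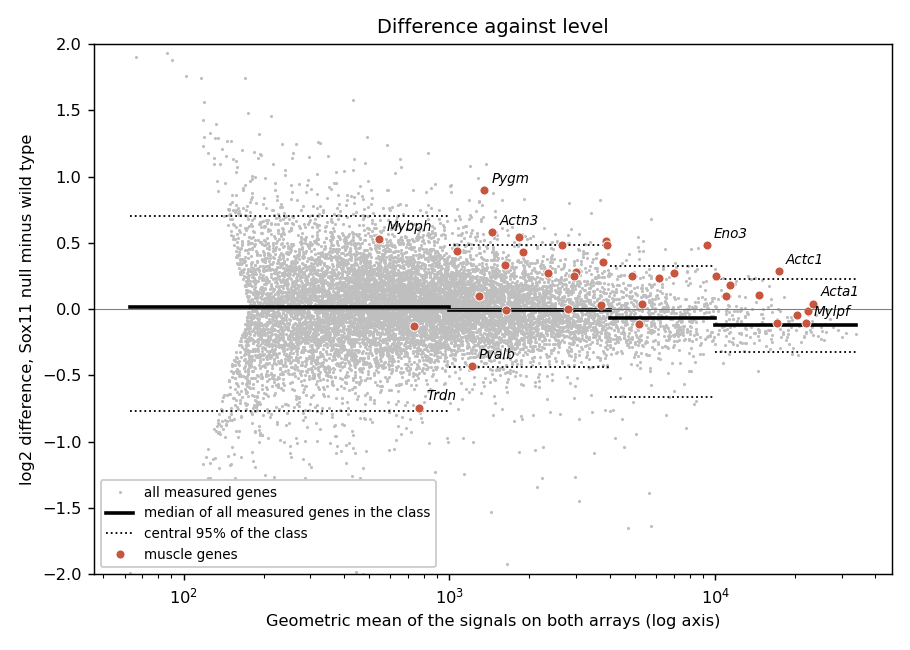
Log2 difference (Sox11 null minus wild type) against the geometric mean signal of both arrays (log axis) for all measured genes (grey) and the muscle genes (red), with the median (solid) and central 95% (dotted) of all measured genes in 4 level classes. The class median falls from 0.018 to -0.12 as the signal rises, the muscle genes lie mostly above it, and 27 grey genes lie outside the vertical range of -2 to 2.

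Genes of the same apparatus outside the list were also more often above 0 than below. Textbook lists of other muscle genes had 92 genes on the array and 83 measured, with a median of 0.17. Of the 83, 58 were above 0, against 50.0% of all measured genes. In the same lists, 10 were 1.5-fold higher and 2 were 1.5-fold lower, against 3.07% and 3.24% of all measured genes. The contractile apparatus accounted for most of the higher ones, with 8 of 32 measured genes 1.5-fold higher, 0 lower and a median of 0.24. Ankrd2, a stretch-responsive protein of the titin spring region, was at 209 and 492 (1.26). Flnc, the filamin of the muscle Z disc, was at 382 and 890 (1.24), but its other measured probe set gave -0.83. The small heat shock protein Hspb7 was at 439 and 883 (1.03), with 0.90 over its other measured probe sets. Their mean signals lie under 1000, where the central 95% of all measured genes was -0.77 to 0.70 and 4.33% were 1.5-fold higher.

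Other triad and calcium genes had a median of 0.092 over 24 measured genes. Stac3, needed for the coupling of the membrane's calcium channel to Ryr1, was at 137 and 219 (0.70), which became 0.32 when the floor was raised to the array median. The cardiac ryanodine receptor Ryr2, which neurons express too, was at 234 and 146 (-0.66, and -0.38 with that floor). Other energy genes had a median of -0.00018 over 17 measured genes, all within 1.5-fold. That median was 0.074 with quantile normalization, 0.086 after loess and 0.081 with all probe sets averaged. The muscle carbonic anhydrase Car3 was at 15793 and 15730 (0.014) and the aldolase Aldoa at 13591 and 13062 (-0.037), both in the class above 10000 whose median over all genes was -0.12. The glycolytic enzymes Pfkm (0.33) and Pgam2 (0.25), named after their values were seen, were among the higher ones. Ldha of the same list was at -0.00018. Among the lower ones were Cox6a2 (-0.22) and Ppp1r3c (-0.30), although the other measured probe set of Ppp1r3c gave 1.01. Among membrane and costamere genes (median 0.16 over 10), the sarcoglycan Sgcb was at 1196 and 2084 (0.82, with 0.17 over its other measured probe sets). Bves was at 219 and 45, the latter below the floor, so by this probe set it was at least 4.12-fold lower in the null library. On the log2 scale Bves was at -0.96 with all probe sets averaged and at -0.29 under the raised floor. The 6 myosin heavy chains, the motors of the thick filament, had a median of 0.23 with 5 above 0. The 3 measured myogenic factors of 4, the regulators of muscle identity, had 0.38 with all 3 above 0.

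Markers of other tissues differed in both directions beside the muscle genes. Of 6 cardiac markers picked after values were seen (Myh6, Tnni3, Myl7, Nppa, Nkx2-5 and Gata4), 0 were measured. Their summed signals were 334 and 396. The pick left out heart genes that were measured, such as Mybpc3 (342 and 296), so the 0 is a description and not a test. A wider heart list had 7 of 15 genes measured, led by Casq2 (4639 and 5428) and Myoz2 (2131 and 2794), both of which slow skeletal fibres express too. Its summed signal was 9085 and 10897. Smooth muscle markers were measured for 6 of 8 genes, with Acta2 at 5833 and 5904 and Synpo2 at 852 and 885, a median difference of 0.033 and a summed signal of 8854 and 9215. The summed signal of the muscle list was 243935 and 260813. Skin epithelium markers were all measured, 8 of 8. Of them, 5 were 1.5-fold lower in the null library, against 3.24% of all measured genes. Lor, loricrin, was at 10784 and 6581, and Krt10 at 10189 and 3229. Above 0 were 2 of the 8, the basal-layer keratins Krt5 (4461 and 4737, 0.11) and Krt15 (3421 and 3861, 0.19). Krt14, also a basal-layer keratin, was below 0 (3062 and 2303, -0.39). The list had a median of -0.91 and a summed signal of 41803 and 24470. Cortical neuron markers had 6 of 8 genes on the array, all measured and within 1.5-fold, with a median of -0.11 and a summed signal of 7618 and 7017. These values rest on the brightest probe sets. Bcl11b was at -0.10, but its 3 other measured probe sets had a mean of 0.23. Neurod2 was at -0.16, and its other measured probe set gave -0.85. Fezf2 (0.44) and Emx1 (0.33) were above 0. Of 6 trunk organ markers, 1 was measured (Sftpc at 182 and 129, with Alb at 125 and 80.3 not measured), and the summed signal was 554 and 338. The part of unequal shares of tissues in the muscle differences was not tested.

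**Figure D4:**
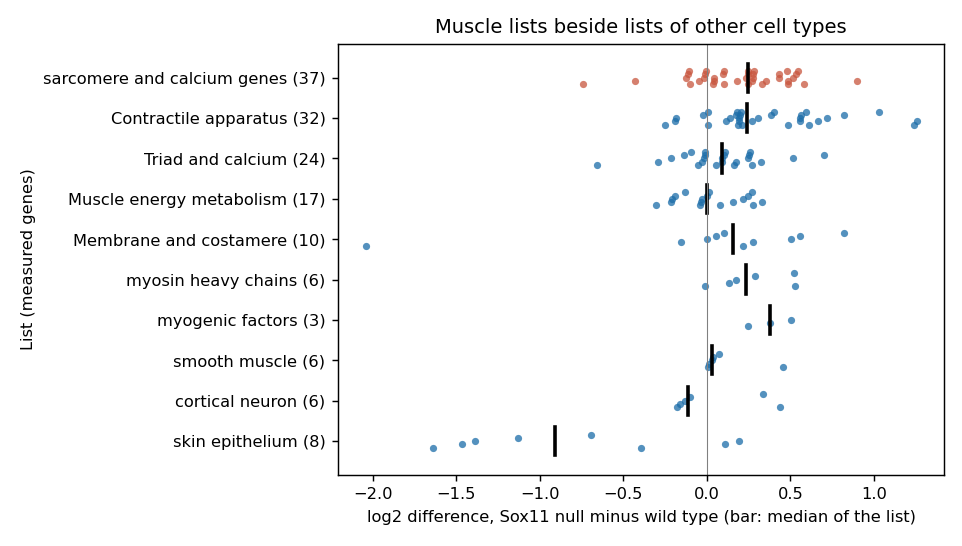
Log2 difference (Sox11 null minus wild type) of each measured gene in the muscle list (red) and in lists of other muscle genes and other cell types (blue), with a black bar at each list's median and the number of measured genes in parentheses. The muscle list (0.25), the other contractile genes (0.24), the myosin heavy chains (0.23) and the myogenic factors (0.38) have medians above 0, the skin list lies at -0.91, and the points are genes of the same 2 libraries.

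The remaining values concern the libraries as a whole. All 6 probe sets of Sox11 were lower in the null library, at 16.4% to 47.8% of the wild-type signal. Beta-actin control probe sets at the transcript's 3' end read 1.78 times those at its 5' end on the wild-type array and 1.16 times on the null array, a measure of how intact the RNA was. The same ratio for Gapdh was 0.922 and 0.816. The part of RNA quality in the muscle differences was not tested. Measured probe sets of the same gene differed from each other with a pooled SD of 0.39 over 5155 genes, and with 0.37 over the 10 muscle genes that have several. Of the 20 other measured probe sets of these 10 genes, 15 had the sign of the brightest one, and in 6 of the 10 genes all of them did.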

How the data were processed

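Signal intensities of 2 Affymetrix arrays, 1 per genotype, were used as deposited, which is on the linear scale. The submitters' processing notes name Affymetrix Expression Console, and the sources used here do not give how it summarised or filtered probes. Each array's mean after trimming 2% at each end was 500.0. After removal of 64 control probe sets, 34945 name 1 gene, 932 several and 9160 none here, and 34741 symbols were updated by gene number through the RefSeq table of GRCm38.p6. Signals were taken to log2 with no pseudocount, the null array was centred on the median difference over measured genes (-0.020 beforehand), and values under an array's 25th percentile were raised to it. The probe set brightest on average (log2) stood for its gene. No test was run, since each genotype has 1 array. Members and lists were chosen with earlier results of these data known, and the myosin, myogenic and strictly cardiac lists and the isoform families were added after values were seen. Named genes are all members, up to 3 of each other muscle list beyond 1.5-fold each way or its 2 brightest, and the 2 brightest of each marker list. Other names are isoform partners, Sox11, the strictly cardiac list, or genes outside this rule. Those outside it include Pfkm, Pgam2, Ldha, Cox6a2, Ppp1r3c, Neurod2, Fezf2, Emx1, Krt5, Krt14 and Krt15. The steps were tested on simulated data. Python 3.11.15, pandas 2.3.3 and statsmodels 0.14.6 (loess) were used.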

Additional observations from a re-analysis of the deposited data

How the results depend on the processing

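9 settings were tried: leaving the arrays uncentred, quantile normalization, subtracting a loess trend, dropping the floor or raising it to the array median, filtering not at all or at the 75th percentile, averaging all probe sets of a gene, and omitting the _s_at and _x_at types. Averaging only the measured probe sets was chosen after seeing the data. A value counted as moved beyond the pooled SD of probe sets of a gene, divided by the root of the number of genes for a median. With the mean over all probe sets the median of the 37 genes was 0.16, that of the thick filament -0.11, and that of the slow skeletal genes 0.48, also 0.48 with the measured probe sets. The fast skeletal median was 0.19 with quantile normalization and 0.18 without the loess trend. The number of genes 1.5-fold higher was 2 with quantile normalization and with either mean, and the number 1.5-fold lower was 0 with either mean. With all probe sets averaged, Trdn went to 0.13, since its other probe sets point the other way, and Des (-0.14), Ttn (-0.19), Myl4 (-0.39) and Tnni2 (-0.22) also changed sign. Mybpc1 went to 0.73 with either mean, and with the measured probe sets Trdn was at -0.055 and Ttn at -0.033. The fast skeletal median was 0.099 with Casq1 counted as fast, also chosen after seeing the data. No paired analysis was possible because each genotype has 1 array. Neither library can be left out, and the number of arrays limits every value.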

Other observations

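Of the 69 probe sets of the muscle genes, 12 were not measured on either array by the median rule, 7 of them above 0 and 5 below. Some of the latter belong to genes whose brightest probe set was above 0. One of Tnni2 read 133 on the wild-type and 68 on the null array (log2 difference -0.94), the second of Des 172 and 96 (-0.83), and the second of Myl4 94 and 21, the latter below the floor. For Ttn, 2 unmeasured probe sets read 159 and 123 (-0.35) and 105 and 66 (-0.65). The unmeasured probe sets of Trdn were at 95 and 109, 19 and 75, and 15 and 61.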
